A study of Mus musculus with 5 samples.

Results

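The genes that build, sulfate and carry the glycosaminoglycan chains of proteoglycans were followed by RNA-seq after knockdown of the RNA helicase UPF1 in mouse neuroblastoma cells. Members were chosen by gene symbol, as protein-coding genes of the families Chst, Chsy, Chpf, Hs2st, Hs3st, Hs6st, Ndst, Ext, Extl, Xylt, B3gat, Csgalnact, Sulf, Gpc and Sdc, which gave 57 of the 55573 genes in the count table, 21900 of them protein-coding. Because Chst15 was chosen by its known rise in these libraries, its values are described without a test and it is counted apart from the others. The cells were Neuro-2A (N2A), a single established line derived from a mouse neuroblastoma, transfected with 60 pmol of either Silencer Negative Control #1 (siCtl, 2 libraries, replicates 1 and 3) or an siRNA of 1 sequence against Upf1 (siUpf1, 3 libraries, replicates 1, 2 and 3). Both groups received the same transfection reagent and no other agent. Polyadenylated RNA was sequenced from strand-specific libraries. The study describes its western blots of siRNA-treated N2A cells as independently performed experiments, but neither labels nor methods say that the libraries of a group came from separate cultures, so p-values measure only the spread between these libraries, which may be technical.

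Glycosaminoglycans are long sugar chains. Those of heparan sulfate (HS) and chondroitin sulfate (CS) are attached to core proteins through a short linkage of xylose, galactose and glucuronic acid. HS and CS share this linkage, and the enzyme that adds the next sugar directs the chain to one type or the other. The chains are then sulfated at defined positions in the Golgi, and the resulting patterns bind growth factors, morphogens and guidance cues, which is what they are known for in developing neurons. UPF1 acts in nonsense-mediated mRNA decay (NMD), the quality-control pathway that degrades mRNAs whose translation terminates in an unfavorable context, for example upstream of a splice junction or of a long 3′ UTR.

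Most glycosaminoglycan genes that N2A cells transcribed at an appreciable level were upregulated upon UPF1 knockdown, led by Hs6st1, the 6-O-sulfotransferase of heparan sulfate, at a log2 fold change of 1.05 ± 0.045 (SE, 2 siCtl and 3 siUpf1 libraries). Extl3, Gpc1, Sdc3 and Ext1, the former an initiator, the next a pair of core proteins and the last a polymerase of heparan sulfate chains, followed at log2 fold changes of 0.94, 0.82, 0.70 and 0.59. Extl2 alone was called lower, at a log2 fold change of -0.65 ± 0.138 (SE). Of the 57 members, 10 had no read in any library, 16 had reads but too few for an adjusted p-value, and 31 were tested. Leaving out Chst15, 15 of the 30 tested members (50%) were called higher and 1 (3.33%) lower by DESeq2's Wald test at an adjusted p-value under 0.05, beside 22.0% higher and 22.9% lower over all 15191 genes tested. The median log2 fold change of these 30 members was 0.26, with 24 above 0 and 6 below, whereas the median over all tested genes was -0.002. Calls are more frequent among well-counted genes, so the same share was taken over genes that averaged 100 normalised counts or more. There, 15 of 23 members (65.2%) were called higher and 1 (4.35%) lower, beside 28.1% higher and 29.4% lower of 10963 genes. The siCtl and siUpf1 libraries did not overlap for 21 of the 30 members, and for 69.4% of all tested genes, so this count was near the background.

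P-values of the Wald test, as given throughout, are two-sided DESeq2 values and were adjusted by the Benjamini-Hochberg method over all tested genes, and normalised counts are read counts divided by DESeq2's median-of-ratios size factors. Between 20402205 and 27717594 reads were assigned to genes per library. Upf1 mRNA measured 5217 and 5243 normalised counts in the siCtl libraries and 2403, 2496 and 2449 in the siUpf1 libraries, which is 46.8% of the siCtl mean (log2 fold change -1.10 ± 0.051 (SE), adjusted p = 7.09e-101). Markers of glial, fibroblast, immune and endothelial cells were low in sum, with Mog, Col3a1 and Kdr at 0 in every library. Some single markers were not absent, since Mbp, Pdgfrb and Pecam1 averaged 392, 367 and 208 normalised counts in siCtl. Among these markers, Aldh1l1, Pdgfra and Pecam1 were called lower and Tek was called higher. The summed level of these 4 lists lay between 23.6 and 99.1 normalised counts per kb of exon, against 17940 to 22195 for 13 markers of neurons and neuroblastoma. The neuroblastoma list itself moved with the knockdown, with 9 of its 13 genes called higher and 1 lower, beside 22.0% and 22.9% of all tested genes. All 13 averaged over 100 normalised counts, and at that level 28.1% of genes were called higher and 29.4% lower. The summed level of this list was 17940 to 18120 per kb in siCtl and 20886 to 22195 in siUpf1. The part of this list in the results on glycosaminoglycan genes was not tested. In such bulk samples, fewer cells of a type and less RNA per cell cannot be told apart.

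Because an siRNA can also pair through its seed (bases 2 to 8 of either strand) with the 3′ UTRs of other mRNAs, the Upf1 siRNA is printed 5′ to 3′ with its seeds in capitals.
siUpf1 sense strand: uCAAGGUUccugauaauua
siUpf1 antisense strand: uAAUUAUCaggaaccuuga
The 3′ UTR of each gene's representative transcript (GENCODE M21, GRCm38) was searched on its own strand for the complement of each seed (GATAATT for the antisense and AACCTTG for the sense strand) and for the complement of bases 2 to 7 followed by A (ATAATTA and ACCTTGA). The paired matches overlap in 6 bases and may form an 8-base match. Chst15 apart, a match to the antisense seed was present in 10 of the 30 tested members (33.3%) and in 15.2% of all 12690 tested mRNAs with a 3′ UTR, and 7 of those 10 were called higher and 0 lower. Of the 20 tested members without this match, 8 were called higher and 1 lower. Shares with a match were not adjusted for 3′ UTR length, whose median was 1674 nt in the 30 members and 986 nt over all mRNAs. Over all mRNAs, 29.6% of those with and 23.7% of those without an antisense match were called higher, and 25.9% and 26.8% lower. A match to the sense seed was present in 5 of the 30 members (16.7%), of which 4 were called higher and 1 lower. It was present in 16.0% of all mRNAs, of which 21.5% were called higher and 35.5% lower, compared with 25.1% and 25.0% of mRNAs without it. The matches are shown here for the members called in either direction by at least 0.5 on the log2 scale and for Chst15, with 8 flanking bases on each side and the match in capitals, and for Chst12 the former of 2 neighbouring matches.
Hs6st1 (sense match, chr1:36105313-36105335, plus strand): gtgagctgACCTTGAgacaggac
Extl2 (sense match, chr3:116028257-116028279, plus strand): cgcatatgACCTTGAgaatctac
Hs3st3b1 (sense match, chr11:63887249-63887271, minus strand): tacagcagAACCTTGctcccagc
Hs3st3b1 (antisense match, chr11:63886890-63886913, minus strand): cagatgtcGATAATTAgtggtgat
Ext1 (antisense match, chr15:53068335-53068357, minus strand): aacattaaATAATTAtttttgaa
Xylt2 (antisense match, chr11:94664322-94664344, minus strand): cttttttaATAATTAaaatgagt
Chst12 (antisense match, chr5:140525686-140525708, plus strand): ttttttaaATAATTAtttgtttt
Chst15 (antisense match, chr7:132235824-132235846, minus strand): tatttaaaATAATTAaagatgga
Extl2, the only member called lower, held a sense match, and so did Hs6st1, Hs3st3b1, Hs2st1 and Chpf2, which were called higher. The sequence matches are descriptions of these windows, and their part in the results was not tested.

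A single paralog supplied most of the transcript level in several families, as the plot of levels per length shows. Levels between genes are given as TPM, counts divided by the summed exon length of each gene and scaled to the same total in every library. In siCtl, Hs6st1 had the highest level of all members (mean 67.8 TPM), with no read of Hs6st3 in any library and 1 of Hs6st2, so that Hs6st1 made up practically the whole level of its family. Xylt2, a xylosyltransferase that starts the linkage of HS and CS chains, made up 99.9% of its family, with 1 read of Xylt1 in the 5 libraries together. B3gat3, the glucuronyltransferase that completes the linkage, made up the whole B3gat family but for 1 read of B3gat2, and Csgalnact2, which adds the first N-acetylgalactosamine of a CS chain, made up 99.6% of its own. Gpc1 made up 88.5% ± 1.58 (SD, n = 2) of the glypicans as counted, where reads of Gpc2 may have been lost to an overlapping gene. Hs3st3b1 made up 81.9% ± 1.07 (SD, n = 2) of the 3-O-sulfotransferases. The levels that followed Hs6st1 in siCtl were 60.6 TPM for Gpc1, 53.3 for Chpf, 51.3 for Extl1, 49.0 for Sdc1, 46.4 for Chsy1 and 43.8 for Chst11. With representative transcripts in place of summed exons, Ext2 moved most, from 22.3 to 41.4 TPM, and passed Extl1, which went from 51.3 to 39.2. Chst11 was then at 31.9 TPM, and Hs6st1 remained the highest at 73.4, so the order of genes below it depends on the length used.

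**Figure D1:**
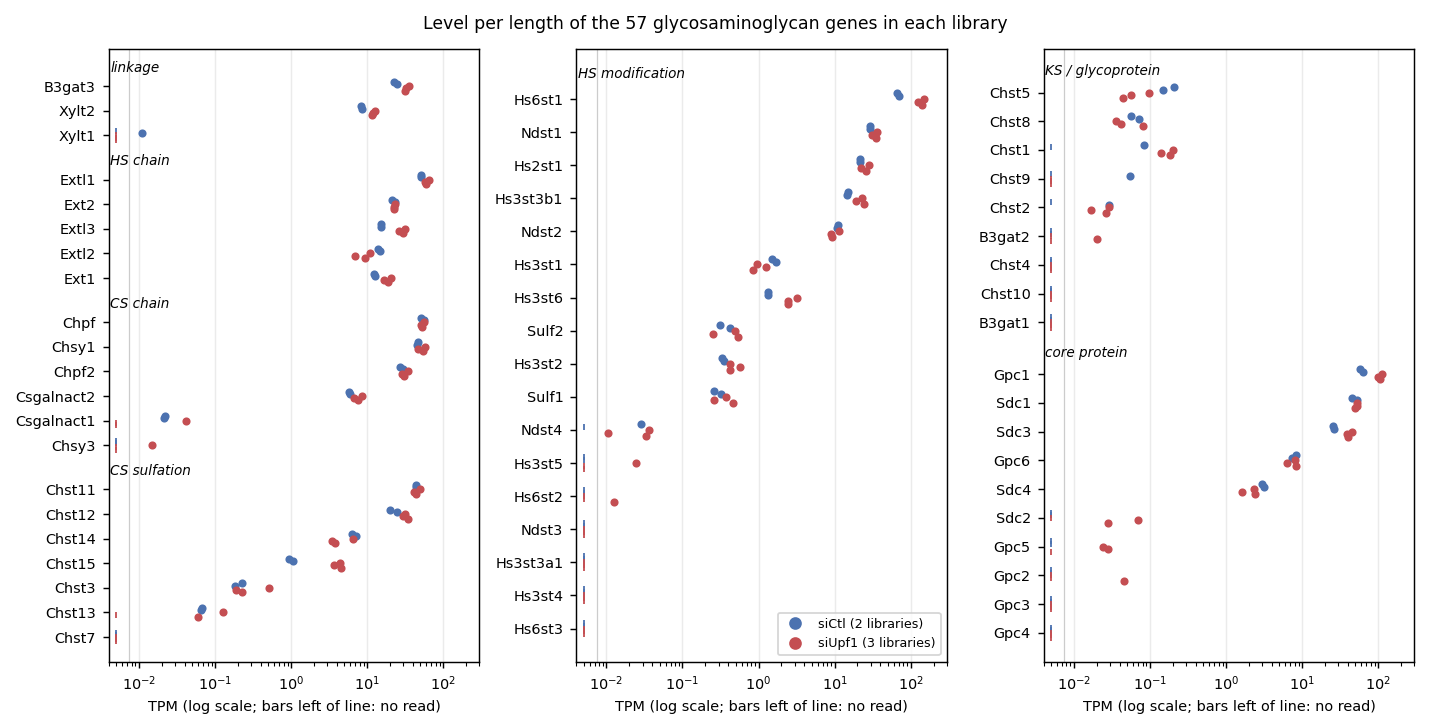
TPM (log axis) of the 57 members in each library, grouped by role, with siCtl libraries in blue and siUpf1 libraries in red and marks left of the grey line for libraries with no read. Hs6st1 has the highest siCtl level (67.8 TPM) and the siUpf1 points of Hs6st1, Gpc1, Sdc3 and Extl3 lie to the right of their siCtl points.

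Both tested members that build the linkage region, Xylt2 and B3gat3, were upregulated. Linkage enzymes outside the member families, of which B4galt7 was not called, are described with the other chain enzymes below. Xylt2 (ENSMUSG00000020868.15, chr11:94663851-94677515) transfers xylose to the core protein and measured 303 and 298 normalised counts in siCtl and 418, 482 and 423 in siUpf1. Every siUpf1 library exceeded every siCtl library (log2 fold change 0.55 ± 0.128 (SE), adjusted p = 7.39e-05). B3gat3 (ENSMUSG00000071649.6, chr19:8920374-8927236) measured 543 and 556 normalised counts in siCtl and 759, 853 and 735 in siUpf1. Its log2 fold change was 0.51 ± 0.101 (SE, adjusted p = 2.92e-06), again without overlap between the groups. The 3′ UTR of Xylt2 also holds the string GCAGTAC, shown in capitals.
Xylt2 (chr11:94664421-94664443, minus strand): aggtgggtGCAGTACtccctact
This string was taken from earlier results of these same data, where mRNAs that hold it stood out. Of the 650 tested mRNAs with it, 49.1% were called higher, compared with 23.2% of those without it. These shares restate how the string was chosen and test nothing. It was present in 2 of the 31 tested members (Xylt2, called higher, and Chst3, not called) and in 5.12% of all mRNAs. The part of the string in the change of Xylt2 was not tested.

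The exostosins include the enzymes that start and polymerise heparan sulfate. Extl3, Ext1 and Extl1 were called higher, Ext2 was not called and Extl2 was called lower. Extl3 (ENSMUSG00000021978.9, chr14:65052060-65149855) adds the first N-acetylglucosamine and thereby commits a chain to heparan sulfate. It measured 861 and 819 normalised counts in siCtl and 1579, 1639 and 1613 in siUpf1, a log2 fold change of 0.94 ± 0.075 (SE, adjusted p = 1.15e-34). Ext1 (ENSMUSG00000061731.9, chr15:53064038-53346159), the catalytic subunit of the heparan sulfate polymerase, measured 931 and 900 normalised counts in siCtl and 1388, 1367 and 1372 in siUpf1. All siUpf1 values of Ext1 lay within a narrow band above both siCtl values (log2 fold change 0.59 ± 0.075 (SE), adjusted p = 6.42e-14). Its polymerase partner Ext2 measured 1444 and 1507 normalised counts in siCtl and 1441, 1674 and 1496 in siUpf1, with overlapping groups and a log2 fold change of 0.06 ± 0.077 (SE, adjusted p = 0.601). Extl1, an exostosin-like transferase whose level was the highest of the family over summed exons but below that of Ext2 over representative transcripts, had a log2 fold change of 0.25 ± 0.063 (SE, adjusted p = 0.000297).

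Extl2 (ENSMUSG00000027963.14, chr3:116007462-116029017), which can add N-acetylhexosamine to the linkage region and so end a chain early, was the member that fell. It measured 448 and 444 normalised counts in siCtl and 317, 241 and 290 in siUpf1. The highest siUpf1 library was below the lower siCtl library, and the siUpf1 mean was 63.3% of the siCtl mean (log2 fold change -0.65 ± 0.138 (SE), adjusted p = 1.11e-05). Within the summed level of the 5 exostosin genes, the share of Extl2 was 12.2% and 12.5% in the siCtl libraries and 7.32%, 5.31% and 6.63% in the siUpf1 libraries. The share of Extl3 was 13.4% and 13.1% in siCtl and 20.8%, 20.5% and 21.0% in siUpf1. Extl2 and Extl3, at nearly equal levels in siCtl, were thus far apart after knockdown, while Extl1 over summed exons held 44.3% ± 0.984 (SD, n = 2) and 43.1% ± 0.71 (SD, n = 3) of the family. These shares depend on the length used, since over representative transcripts Ext2 held 36.5% and Extl1 34.6% of the family in siCtl, against 19.3% and 44.3% over summed exons.

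Among the enzymes that modify heparan sulfate, 4 of 10 tested members were called higher and 0 lower, beside 22.0% and 22.9% of all tested genes. The shares were 28.1% and 29.4% among genes averaging 100 normalised counts or more. Of these 17 enzymes, 7 were not tested. Hs6st1 (ENSMUSG00000045216.7, chr1:36068400-36106446) measured 3382 and 3403 normalised counts in siCtl and 7011, 7018 and 7070 in siUpf1. The libraries of each group lay close together and the siUpf1 mean was 207% of the siCtl mean (adjusted p = 8.52e-117). Hs3st3b1 (ENSMUSG00000070407.5, chr11:63885792-63922290), a 3-O-sulfotransferase, measured 693 and 629 normalised counts in siCtl and 932, 963 and 1076 in siUpf1, without overlap (log2 fold change 0.58 ± 0.096 (SE), adjusted p = 6.77e-09). Its paralog Hs3st3a1, with which it shares 6.28% of its 100-base windows, had no read. Hs2st1, the 2-O-sulfotransferase, and Ndst1, which replaces acetyl by sulfate on glucosamine before the other sulfations, rose by less, at log2 fold changes of 0.27 ± 0.066 (SE, adjusted p = 0.000238) and 0.25 ± 0.060 (SE, adjusted p = 0.000151). Ndst2, the other expressed N-deacetylase/N-sulfotransferase, measured 462 and 430 normalised counts in siCtl and 439, 410 and 387 in siUpf1 (log2 fold change -0.11 ± 0.12 (SE), adjusted p = 0.478). The share of Ndst1 in the level of its family was 72.6% and 73.0% in siCtl and 75.7%, 77.6% and 79.0% in siUpf1.

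The remaining tested modifiers had few reads. Hs3st6 measured 16.8 and 16.0 normalised counts in siCtl and 36.5, 33.9 and 30.3 in siUpf1, without overlap, but its log2 fold change of 1.03 ± 0.466 (SE) did not pass the threshold (adjusted p = 0.0583). Hs3st1 measured 31.4 and 33.0 normalised counts in siCtl and 17.8, 28.9 and 16.9 in siUpf1, a log2 fold change of -0.63 ± 0.466 (SE, adjusted p = 0.288). Sulf1 and Sulf2, the extracellular enzymes that remove 6-O-sulfate, had siCtl means of 29.7 and 19.2 normalised counts and overlapping groups. Changes in these genes of the size seen in Hs2st1 or Ndst1 were not detectable at this depth.

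**Figure D2:**
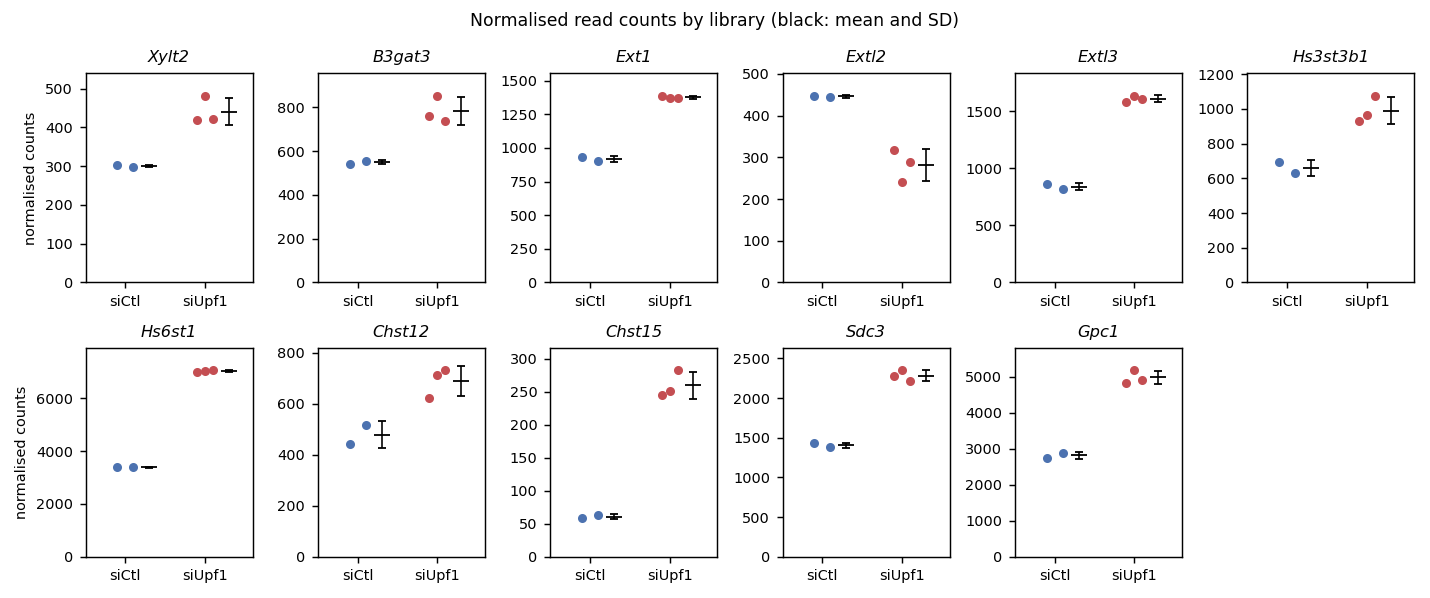
Normalised read counts by library (linear axes from 0, blue siCtl, red siUpf1, black mark and bar for mean and SD) of the 10 members called at a log2 fold change of at least 0.5 in size, and of Chst15. The groups do not overlap in any panel, as in 69.4% of all tested genes, and the panels were chosen by these same changes. Extl2 is the panel in which siUpf1 lies below siCtl.

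In the chondroitin sulfate branch, the chain-building genes rose by smaller amounts. Of 4 tested genes, 3 were called higher, beside 22.0% of all tested genes. All 4 averaged over 100 normalised counts, and 28.1% of genes at that level were called higher. Csgalnact2 measured 292 and 284 normalised counts in siCtl and 388, 373 and 377 in siUpf1 (log2 fold change 0.40, adjusted p = 0.00625). Chsy1, a chondroitin synthase, measured 1819 and 1680 in siCtl and 2018, 1958 and 2060 in siUpf1 (log2 fold change 0.20, adjusted p = 0.00553), and Chpf2, its polymerising partner, measured 1408 and 1450 in siCtl and 1600, 1650 and 1572 in siUpf1 (log2 fold change 0.17, adjusted p = 0.0319). Chpf, the other partner, measured 1827 and 1884 in siCtl and 1813, 1983 and 1823 in siUpf1, with overlapping groups and a log2 fold change of 0.01 ± 0.067 (SE, adjusted p = 0.914). The reads of Mir671, which lies within Chpf2 on the same strand, cannot be separated from those of Chpf2. The calls of Csgalnact2, Chsy1 and Chpf2 were lost without siCtl replicate 3 (log2 fold changes 0.37, 0.14 and 0.19). In that fit the remaining siCtl library is assumed to vary like the siUpf1 libraries. The call of Csgalnact2 was also lost without siCtl replicate 1 (log2 fold change 0.41). That of Chsy1 was also lost without siUpf1 replicate 3 (log2 fold change 0.19, DESeq2 adjusted p = 0.0528). The call of Chpf2 was lost whichever of the 5 libraries was left out.

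Chst15 (ENSMUSG00000030930.14, chr7:132235780-132317228), which adds 6-O-sulfate to galactosamine already sulfated at position 4 and so makes the disulfated CS-E unit, measured 58.7 and 63.2 normalised counts in siCtl and 245, 251 and 283 in siUpf1. These values rest on 56 and 67 reads in siCtl and 276, 200 and 317 reads in siUpf1. The siUpf1 mean was 426% of the siCtl mean (log2 fold change 2.09 ± 0.205 (SE)), the largest fold change among the 31 members with an adjusted p-value, and it was the value by which the gene was chosen. Its level per length stayed low, at 1.00 TPM in siCtl and 4.21 in siUpf1. Within the 7 chondroitin sulfotransferase genes, Chst15 went from 1.31% and 1.38% of the summed level in siCtl to 4.68%, 4.67% and 5.28% in siUpf1.

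The 4-O-sulfotransferases that supply the substrate of this enzyme differed among themselves. Chst12 (ENSMUSG00000036599.10, chr5:140505550-140525724) measured 441 and 516 normalised counts in siCtl and 624, 712 and 733 in siUpf1, without overlap (log2 fold change 0.52 ± 0.113 (SE), adjusted p = 1.53e-05). Chst11, the most abundant gene of the family, measured 2243 and 2135 in siCtl and 2303, 2324 and 2227 in siUpf1, with overlapping groups (log2 fold change 0.06 ± 0.060 (SE), adjusted p = 0.438). Chst14, which sulfates dermatan sulfate, measured 122 and 131 in siCtl and 113, 74.0 and 71.3 in siUpf1 (log2 fold change -0.55 ± 0.254 (SE), adjusted p = 0.0659), so that every siUpf1 library was below both siCtl libraries although the call was missed. Chst3, a 6-O-sulfotransferase, stayed at 10.4 to 27.6 normalised counts in all libraries. The share of Chst11 in the family's level was 61.3% and 56.9% in siCtl and 53.7%, 52.8% and 50.9% in siUpf1, while that of Chst12 was 28.2% and 32.2% in siCtl and 34.0%, 37.8% and 39.2% in siUpf1.

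**Figure D3:**
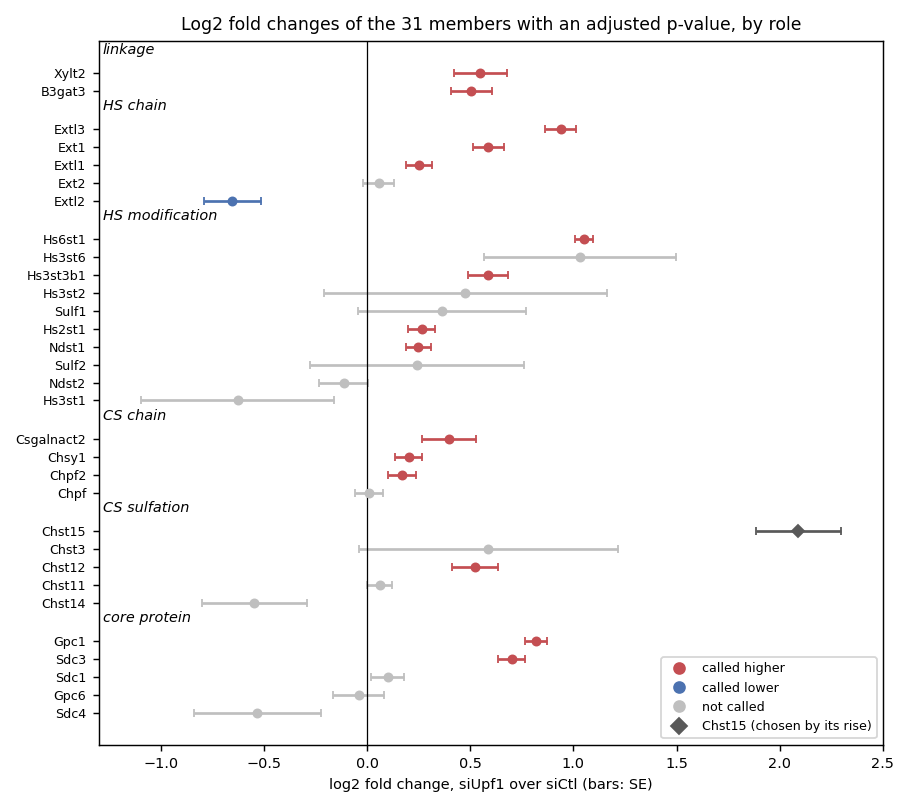
Log2 fold change of siUpf1 over siCtl with its SE for the 31 members with an adjusted p-value, grouped by role and colored by call, with Chst15 as a grey diamond because it was chosen by its rise. Hs6st1 (1.05) is the highest of the called members and Extl2 (-0.65) is the called member left of 0.

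Of the core proteins that carry heparan sulfate at the cell surface, the glypican and the syndecan with the larger gains were Gpc1 and Sdc3. Gpc1 (ENSMUSG00000034220.7, chr1:92831645-92860779), which is anchored by a lipid, measured 2751 and 2889 normalised counts in siCtl and 4833, 5191 and 4925 in siUpf1. The siUpf1 mean was 177% of the siCtl mean, without overlap between the groups (log2 fold change 0.82 ± 0.054 (SE), adjusted p = 9.38e-51). Sdc3 (ENSMUSG00000025743.14, chr4:130792537-130826319), the syndecan typical of neurons, measured 1428 and 1381 in siCtl and 2280, 2355 and 2216 in siUpf1 (log2 fold change 0.70 ± 0.064 (SE), adjusted p = 4.38e-26). Sdc1, the most abundant syndecan, measured 1611 and 1753 in siCtl and 1676, 2019 and 1726 in siUpf1, with overlapping groups (log2 fold change 0.10 ± 0.081 (SE), adjusted p = 0.338). Sdc4 measured 71.3 and 70.8 in siCtl and 48.9, 41.4 and 56.2 in siUpf1, without overlap but not past the threshold (log2 fold change -0.53 ± 0.307 (SE), adjusted p = 0.153). Gpc6 measured 496 and 418 in siCtl and 436, 413 and 480 in siUpf1 (log2 fold change -0.04 ± 0.124 (SE), adjusted p = 0.831). Sdc3 therefore went from 34.6% and 32.1% of the summed syndecan level in siCtl to 45.3%, 41.8% and 43.8% in siUpf1, and Sdc1 from 61.4% and 64.0% to 52.4%, 56.4% and 53.6%. Gpc3 and Gpc4 had no read, and Gpc2, Gpc5 and Sdc2 had at most 2 reads in any library. Gpc2 shares 87.6% of its 100-base windows with Gm43720, which overlaps it on the same strand. Reads common to both genes may have been discarded, so the level of Gpc2 is not known from these counts.

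**Figure D4:**
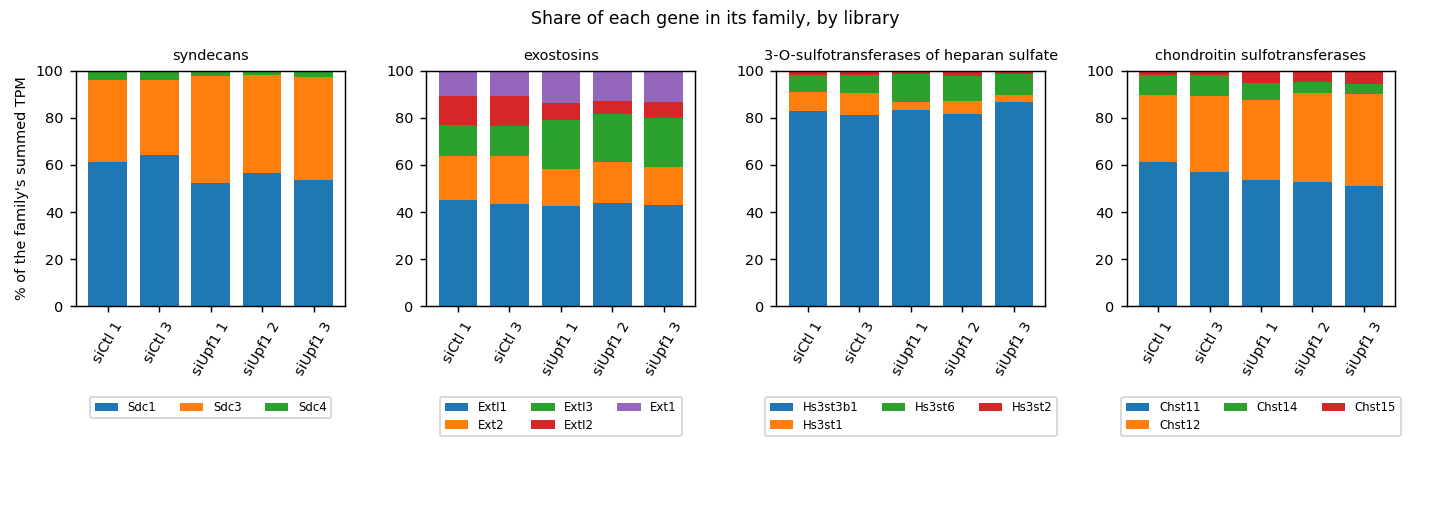
Stacked bars of the share (%) of each gene in the summed TPM of its family in each of the 5 libraries, for genes that made up at least 1% in siCtl. Sdc3, Extl3, Chst12 and Chst15 take a larger share in every siUpf1 library than in either siCtl library, and Sdc1, Extl2 and Chst11 a smaller one.

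The genes for keratan sulfate and for sulfated glycoprotein sugars were nearly silent. None of the 9 was tested, 3 of them (Chst4, Chst10 and B3gat1) had no read, and the others had between 0 and 5 reads per library. A count of 0 allows up to 3 reads, or a CPM of 0.108 to 0.147, depending on the library, with counting error alone considered. No read was found either for Ndst3, Hs3st4, Hs6st3 or Chst7.

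Summed over the 56 members other than Chst15, the level per kb of exon was 5876 and 5856 normalised counts in the siCtl libraries and 7688, 8024 and 7783 in the siUpf1 libraries. By role, the heparan sulfate modifiers summed to 1356 and 1317 per kb in siCtl and to 2136, 2137 and 2181 in siUpf1, and the chondroitin chain-building genes to 1215 and 1203 in siCtl and 1312, 1347 and 1317 in siUpf1. Hs6st1 accounted for 80.6% of the gain of the modifiers (657 of 815 per kb), and without it they summed to 746 and 703 per kb in siCtl and to 871, 871 and 905 in siUpf1.

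The annotated mRNAs of the tested members had longer untranslated regions at the median than tested mRNAs as a whole, and 3′ UTR length is a property on which NMD is known to act. Leaving out Chst15 (2494 nt), the median 3′ UTR was 1674 nt in the 30 tested members and 2215 nt in the 15 called higher. It was 986 nt over all 12690 tested mRNAs. Over all mRNAs the median 3′ UTR was 1454 nt in those called higher and 811 nt in those called lower. The median 5′ UTR was 343 nt in the same 30 members and 177 nt in all mRNAs. With Chst15 included, at least 1 AUG upstream of the start codon was present in 21 of 31 members (67.7%) and in 51.7% of all mRNAs. There were 12 such AUGs in Extl3, 11 in Chpf2, 10 in Chst15, 9 in Extl1 and 7 in Ext1. Hs6st1 had 1 upstream AUG, and Gpc1 and Sdc3 had none, with 3′ UTRs of 2225, 2215 and 3510 nt. A splice junction beyond a minimum distance past the stop codon was annotated in Chpf2 only (3.23% of members, 0.441% of all mRNAs). Junctions nearer to the stop codon, and those outside the representative transcript, were not counted. An isoform annotated as an NMD substrate existed for 8 of 31 members (25.8%) and for 28.5% of all mRNAs. Extl2 had a 3′ UTR of 1519 nt and 4 upstream AUGs. These are features of annotated transcripts, which may not be those used in N2A cells, and their part in the changes was not tested.

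Genes outside the families that act in the same pathway were called in both directions, as were genes in general. Of 13 other chain enzymes, 7 were tested, with 4 called higher and 0 lower and a median log2 fold change of 0.34. All tested genes together had 22.0% called higher and 22.9% lower, and genes averaging 100 normalised counts or more had 28.1% and 29.4%. Fam20b, the kinase that phosphorylates the xylose of the linkage, measured 3228 and 3177 normalised counts in siCtl and 4425, 4449 and 4326 in siUpf1 (log2 fold change 0.46, adjusted p = 4.64e-19). Pxylp1, the phosphatase that removes this phosphate, and B3galt6, which adds the latter galactose of the linkage, had log2 fold changes of 0.89 and 0.82. B4galt7, which adds the former galactose, measured 360 and 328 normalised counts in siCtl and 412, 402 and 364 in siUpf1 and was not called (log2 fold change 0.19 ± 0.128 (SE), adjusted p = 0.234).

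Among 17 genes for sugar and sulfate precursors and their transport, 16 were tested, with 6 called higher and 6 lower and a median of 0.02. The shares over genes averaging 100 normalised counts or more were 28.1% higher and 29.4% lower, and over all tested genes 22.0% and 22.9%. Slc35b2, which carries the sulfate donor PAPS into the Golgi, measured 488 and 481 normalised counts in siCtl and 1140, 1187 and 1063 in siUpf1 (log2 fold change 1.22 ± 0.092 (SE), adjusted p = 5.96e-38). Papss1, which makes PAPS, went the other way, with 1580 and 1657 in siCtl and 1002, 1112 and 1032 in siUpf1 (log2 fold change -0.63 ± 0.076 (SE), adjusted p = 1.68e-15). Slc35b2 and Papss1 thus lay on opposite sides of 0, with no overlap between groups in either gene, as in 69.4% of all tested genes. Slc35b3 and Papss2 of the same list were not called (log2 fold changes 0.26 and -0.41, DESeq2 adjusted p = 0.224 and 0.131). Pgm3, of UDP-N-acetylglucosamine synthesis, and Slc26a2, a sulfate transporter, rose by 0.74 and 0.43 on the log2 scale, and Uxs1, which makes UDP-xylose, fell by 0.47.

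The 18 genes of lysosomal and extracellular breakdown were all tested, with 6 called higher and 5 lower and a median of -0.09. These counts were near the background of 28.1% higher and 29.4% lower among genes averaging 100 normalised counts or more. The sulfatases Ids, Arsg and Sgsh had log2 fold changes of 0.99, 0.78 and 0.57, whereas the glycosidases Gusb and Hexa had values of -0.39 and -0.34. Of 22 other proteoglycan core proteins, 15 were tested, with 6 called higher and 2 lower and a median of 0.19. Over all tested genes, 22.0% were called higher and 22.9% lower, and over genes averaging 100 normalised counts or more 28.1% and 29.4%. Spock2, Vcan and Ncan, proteoglycans of the neural extracellular matrix, had log2 fold changes of 0.87, 0.66 and 0.63, and Spock2 measured 2979 and 3083 normalised counts in siCtl and 5373, 5840 and 5421 in siUpf1. Col18a1, a basement membrane collagen that carries heparan sulfate, and Bcan, a brain lectican, had values of -0.99 and -0.31, and the call of Bcan was lost without either siCtl library or without siUpf1 replicate 1 or 3, at DESeq2 adjusted p-values of 0.0609 to 0.204.

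**Figure D5:**
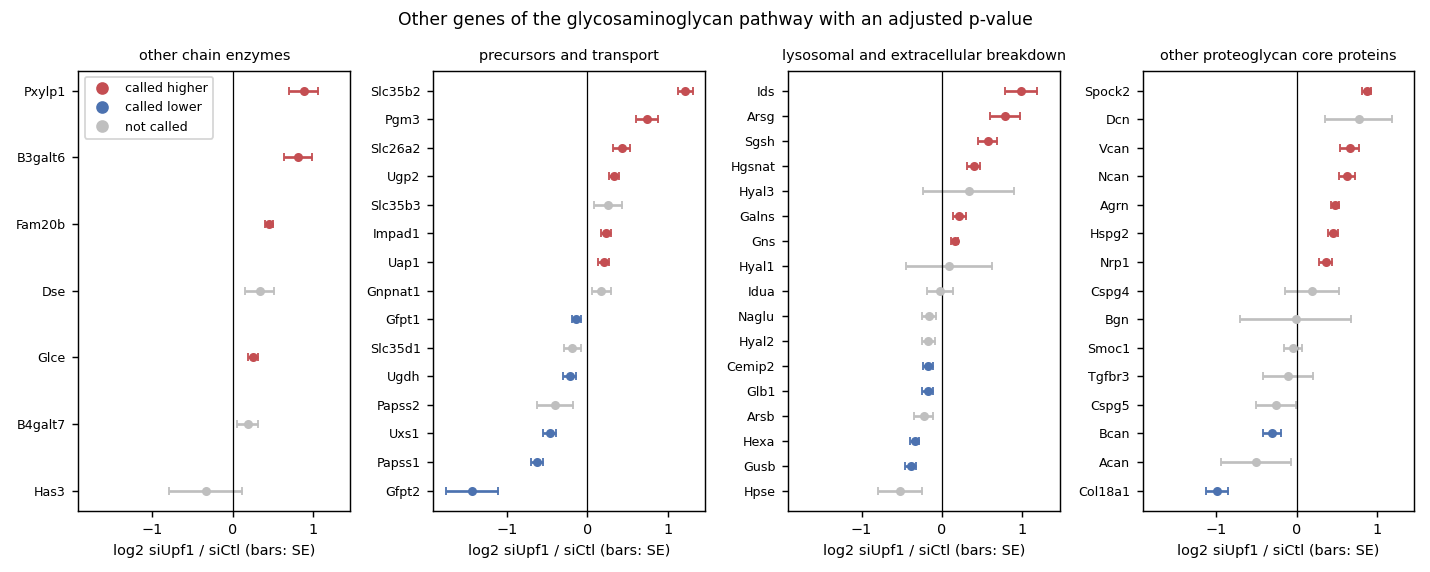
Log2 fold change of siUpf1 over siCtl with its SE for tested genes of the 4 other pathway lists that are reported here, colored by call. Genes of the precursor list lie on both sides of 0, from Slc35b2 at 1.22 downward. Of 7 other chain enzymes, 4 are called higher and 0 lower, beside 22.0% and 22.9% of all tested genes. The shares are 28.1% and 29.4% among genes averaging 100 normalised counts or more.

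Of the 16 calls among members other than Chst15, 11 were held without each of the 5 libraries in turn, where leaving out a siCtl library leaves 1 control whose spread is taken from the siUpf1 libraries. Those that were not were Extl1 (log2 fold change 0.25 with all libraries, adjusted p = 0.0615 without siCtl replicate 3), Hs2st1 (adjusted p = 0.052 without the same library), Csgalnact2, Chsy1 and Chpf2. Without siCtl replicate 3, 10 members were called higher and 1 lower.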

How the data were processed

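The members and gene lists were chosen with earlier results of these data known. The deposited table held gene-level counts of reads, not normalised, from poly(A)-selected, strand-specific RNA-seq of 5 N2A libraries, grouped here by their titles. Per the labels and methods, the authors mapped reads to GRCm38.p6 with STAR 2.7.0f and counted them over exons with featureCounts (Subread 1.6.4), without pooling. Such counting discards or splits reads of near-identical paralogs, and PCR duplicates cannot be recognised, so floors cover counting error only. The study names DESeq2 (1.22.1, R 3.5.1) and the threshold of 0.05. Here siUpf1 was compared with siCtl by the default Wald test of DESeq2 1.42.0 in R 4.3.3 on the 5 libraries, with no term besides group, with independent filtering and with p-values adjusted after Benjamini and Hochberg. A gene with an adjusted p-value was counted as tested, and called if it was under 0.05. The script was tested on simulated counts.

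Values per library are given for called members with a log2 fold change of at least 0.5 in size and a mean of at least 100 normalised counts, for Chst15, for the most abundant members of each role and for members compared with these. Of each pathway list, the up to 3 genes with the highest and 3 with the lowest fold changes are named, where called and averaging 100 counts. Some genes that the rule names are not reported here, though the counts over their lists include them. Positions, lengths and UTRs came from GENCODE M21 (GRCm38), where 99.8% of identifiers were found. Alternatives were TMM and total-count size factors, a count minimum of 10 in 2 libraries, no independent filtering, a replicate block, removal of length and GC trends, shrunken fold changes, edgeR 4.0.16's quasi-likelihood test, representative transcript lengths for TPM, and leaving out each library. With 2 libraries against 3, an exact permutation test cannot pass the threshold, and none was made.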

Additional observations from a re-analysis of the deposited data

How the results depend on the processing

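The 16 member calls other than Chst15 kept their direction under every alternative that gave a value for them, and all 16 were kept with TMM size factors, total-count size factors, a count minimum and edgeR. Without independent filtering and with length and GC trends removed, 15 were kept, the one lost being Chpf2 in both. The replicate numbers did not pair the libraries (correlations of deviations -0.034 and -0.0623 for replicates 1 and 3). With a replicate block 10 of the 16 calls were kept, and those of Xylt2 (adjusted p = 0.0579), Ndst1 (0.0703), Extl1 (0.122), Chsy1 (0.134), Csgalnact2 (0.144) and Chpf2 (0.378) were lost. There, 9 members were called higher and 1 lower, and over all genes 1957 were called higher and 1962 lower, against 3341 and 3481 without it. The block left 3 genes of breakdown and 1 other core protein called lower.

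Over the fits that left out a library, of which those with 1 siCtl library take its spread from the siUpf1 libraries, 10 to 14 members were called higher and 1 to 2 lower, 2393 to 2944 genes were called higher and 2374 to 3115 lower over all genes, 3 to 4 breakdown genes were called lower instead of 5, and 1 to 2 other core proteins. Members called lower numbered 2 with the count minimum and 3 with edgeR, instead of 1, since Chst14 (adjusted p = 0.047 and 0.02) was added in both and Sdc4 (0.0312) in edgeR. Without siUpf1 replicate 1, Chst14 was called lower as well (adjusted p = 0.0172). Hs3st6 was called higher with the count minimum, with length and GC trends removed and with edgeR (adjusted p = 0.0391, 0.0434 and 0.00633). Breakdown genes called lower numbered 3 with total-count size factors and 9 with edgeR.

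Some members that were not called changed sign on the log2 scale. Ext2 was at -0.007 with the block, and ranged from -0.007 (without siUpf1 replicate 2) to 0.10 when libraries were left out. Chpf was at -0.029 with the block, at -0.071 with length and GC trends removed, and from -0.030 (without siUpf1 replicate 2) to 0.034 when libraries were left out. Chst11 was at -0.032 with length and GC trends removed. Gpc6 was at 0.008 with the block, and from -0.162 to 0.083 (without siCtl replicate 1) when libraries were left out. The causes were not tested. Across 51 genes and the 12 settings with a test, 555 of 596 fold changes kept their sign and side of the call, 24 lost and 7 gained a call and 10 changed sign. Shrinkage brought the log2 fold change of Chst15 to 1.69. Low counts limit what can be said of Hs3st1, Hs3st2, Hs3st6, Chst3, Sulf1 and Sulf2.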
